A study of Mus musculus with 14 samples.

Results

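The genes described here are 39 genes of the amino acid branch of the integrated stress response in mouse embryonic stem cells. They comprise the transcription factor Atf4 and its partners, genes of serine synthesis, other amino acid enzymes and cytosolic aminoacyl-tRNA synthetases, and amino acid transporters were left out. They were chosen by name, and all 39 were found among the 37991 gene identifiers of the larger data set. The cells were C57BL/6 stem cells that carry an mCherry reporter of the mir-290 locus and an eGFP reporter of the mir-302 locus. In the larger set, sparsely plated cells spent 5 days in one of 5 media, with 2 libraries per medium. FBS/LIF held serum and the cytokine LIF, and the labels name no further addition. VitC/LIF held 500 µM vitamin C in addition, and L-Pro/LIF held L-proline at a dose that the labels do not give. 2i/LIF held the inhibitor pair known as 2i, which blocks MEK and GSK3. The protocol gives 2i, vitamin C and L-proline as supplements of the serum medium. F/A was N2B27, a medium without serum, with 20 ng/ml activin A and 12 ng/ml bFGF, and its title names no LIF. In the smaller set, 1 library each came from cells labelled positive for both reporters, with no sorting step named. The day 0 library came from cells kept in serum and LIF with 100 µM vitamin C, L-proline was given at 1 mM until day 5, and F/A (activin A at 20 ng/ml, with a bFGF dose not stated) was sampled on days 3 and 5. The labels do not say how many clones of the line were used, nor whether the paired libraries came from separate cultures, so p-values measure the spread between these libraries, which may be technical.

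The integrated stress response is the pathway by which cells answer a shortage of amino acids, unfolded proteins and other stresses. Kinases phosphorylate the initiation factor eIF2, translation in general slows, and the mRNA of Atf4 is translated better. ATF4 protein pairs with C/EBP and other bZIP factors and binds the C/EBP-ATF response element, also called the amino acid response element, in genes for amino acid synthesis, amino acid uptake and tRNA charging. Because Atf4 is controlled mainly at translation, its mRNA level is not a measure of ATF4 protein. In embryonic stem cells, L-proline added to serum medium is known to move cells toward a primed, mesenchymal-like state, and proline shortage is known to engage this pathway.

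Promoter sequence was examined first, because ATF4 binds the response element in genes of this pathway. RefSeq promoter windows on the build GRCm38.p6, which run from 250 bases before to 50 bases after a start site, were found for 32 of the 39 genes. The element's core was searched as TGATGNAA on either strand, so that its reverse complement TTNCATCA also counted. It was present for 13 of the 32 genes (40.6%) and for 1219 of all 27025 genes with a window (4.51%). The stricter form TGATGCAA, or TTGCATCA on the other strand, is contained in the first and was present for 9 of 32 (28.1%) and for 279 of all genes (1.03%). By role, a match was found for 5 of 7 tRNA synthetases with a window, 4 of 8 feedback and surface genes, 2 of 7 transcription factors, 2 of 5 amino acid enzymes and 0 of 5 serine pathway genes. The 13 genes were Nupr1, Atf3, Chac1, Trib3, Herpud1, Vldlr, Asns, Pck2, Aars, Gars, Iars, Tars and Yars. A match says only that these letters lie in the window. The genes were chosen by name for this pathway, so their share with a match is not independent of that choice. The stretches around the match are printed for the 6 genes with a match that the rule for named genes selected, 5′ to 3′ on the gene's strand with the match in capitals. Nupr1 is read from the minus strand of chr7:126625543-126625610, and Atf3 from the minus strand of chr1:191183406-191183473. Chac1 is read from the plus strand of chr2:119351019-119351086, and Vldlr from the plus strand of chr19:27216790-27216857. Asns is read from the minus strand of chr6:7693210-7693262, and Pck2 from the plus strand of chr14:55540133-55540200. All 6 stretches lie upstream of the annotated start site.
Nupr1: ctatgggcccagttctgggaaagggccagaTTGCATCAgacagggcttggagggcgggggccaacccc
Atf3: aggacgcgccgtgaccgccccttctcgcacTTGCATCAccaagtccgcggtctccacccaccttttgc
Chac1: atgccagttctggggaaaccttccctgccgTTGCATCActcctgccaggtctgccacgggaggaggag
Vldlr: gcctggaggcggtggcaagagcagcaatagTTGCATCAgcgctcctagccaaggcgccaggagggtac
Asns: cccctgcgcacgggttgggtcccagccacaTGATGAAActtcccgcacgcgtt
Pck2: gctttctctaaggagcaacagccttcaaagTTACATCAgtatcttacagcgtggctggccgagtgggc
The match ended 103 bases before the start site in Nupr1 and Atf3, 186 in Chac1, 193 in Vldlr, 16 in Asns and 96 in Pck2. Nupr1, Atf3, Chac1 and Vldlr carried the stricter form, and Asns and Pck2 did not.

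Libraries of the 5 media held between 17778399 and 26354444 mapped fragments, apart from 6937945 in F/A replicate 1, and the 4 single libraries held 33162689 to 39711061 counted reads. Levels are given as CPM, the counts per 1000000 after TMM scaling, and between genes only as FPKM, which divides by length. The summed level of 4 pluripotency markers, Pou5f1, Sox2, Sall4 and Lin28a, was 1381 to 2343 CPM across the 10 libraries. Each of the 4 was detected in every library, but the sum hides members that moved apart. In F/A against FBS/LIF, Sox2 fell by 3.45 and Pou5f1 by 0.86 on the log2 scale, while 1 of the 4 rose. Lin28a fell by 2.02 in 2i/LIF. Summed CPM of 6 naive markers, Zfp42, Nr0b1 and Esrrb among them, was 13.2 to 20.8 in F/A, 86.3 to 98.5 in L-Pro/LIF and at least 911.9 in every other library. Of 5 primed markers, Fgf5, T and Pou3f1 among them, all 5 rose against FBS/LIF in L-Pro/LIF, and 4 of them did in F/A. The level of Pou3f1 rests on shared fragments, since a median of 1.66% hit it alone. The summed level of 12 fibroblast markers was 12.2 to 14.8 CPM in FBS/LIF, 10.4 to 11.6 in VitC/LIF, 6.78 to 8.32 in 2i/LIF, 42.6 to 45 in L-Pro/LIF and 43.0 to 49.5 in F/A. Lum and Postn were at 0 in both FBS/LIF libraries and Twist2 in replicate 1, and no marker of the 12 was at 0 in L-Pro/LIF or F/A. Of the 10 fibroblast markers tested, 9 rose in L-Pro/LIF and 8 rose in F/A against FBS/LIF, beside 13.7% and 24.4% of all genes. The part of these markers, and of the shift in pluripotency markers, in the results below was not tested. In bulk RNA, fewer cells of a type and less RNA per cell cannot be told apart.

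Nearly all listed genes varied among the media. With edgeR's quasi-likelihood test of any difference among the 5 media, 37 of 39 (94.9%) passed an adjusted p of 0.05, beside 62.7% of all 16033 genes tested, and Ddit3 and Ppp1r15a did not. All 39 genes passed the filter on low counts. In L-Pro/LIF against FBS/LIF, 25 of 39 genes fell (64.1%) and 1 rose, Atf3, where 10.3% of all genes tested were lower, 13.7% higher and 24.0% in either direction. The median log2 fold change of the 39 was -0.58, and that of all genes was 0.01. In 2i/LIF against FBS/LIF, 18 fell and 4 rose, beside 17.9% of all genes lower and 12.5% higher (30.4% in either direction), with a median of -0.33 against -0.04 for all genes. In F/A against FBS/LIF, 13 fell and 3 rose (Atf3, Vldlr and Sesn2), beside 22.0% lower and 24.4% higher (46.4% in either direction), and the share of listed genes called, 41.0%, was near that background. In VitC/LIF against FBS/LIF, 0 genes passed with edgeR, beside 0.674% of all genes (0.362% higher and 0.312% lower). There, 5 listed genes had an unadjusted p under 0.05, all lower, and DESeq2 called 3 of the 39, Stc2, Cth and Vldlr.

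Comparisons that do not use FBS/LIF gave the following counts. In L-Pro/LIF against VitC/LIF, 25 genes fell and 2 rose, Atf3 and Stc2, beside 13.0% of all genes lower and 16.8% higher (29.8% in either direction). In F/A against L-Pro/LIF, 16 genes rose (41.0%) and 0 fell, beside 11.1% of all genes higher and 10.9% lower (22.0% in either direction), with a median of 0.34 against -0.03. At an unadjusted p under 0.05, Nupr1 was the only listed gene below 0 in that comparison, with a log2 fold change of -1.30 (adjusted p = 0.071). These comparisons share libraries with those above: the L-Pro/LIF pair enters 3 of the 6 and the FBS/LIF pair 4, so they are not separate evidence. The F/A against L-Pro/LIF count was 6 without L-Pro/LIF replicate 1 and 3 when only those 4 libraries were fitted, and without F/A replicate 2 it was 16 higher and 4 lower. The L-Pro/LIF against FBS/LIF count was 12 without replicate 1 of either medium, 15 without replicate 2 of FBS/LIF and 11 without replicate 2 of L-Pro/LIF, and every call left was lower. The 2i/LIF count of 22 was 14 without replicate 1 of FBS/LIF or replicate 2 of 2i/LIF, and the F/A count of 16 against FBS/LIF was 10 without replicate 1 of FBS/LIF. Without replicate 2 of F/A, 20 genes rather than 13 were lower there. The L-Pro/LIF against VitC/LIF count was 13 without replicate 1 of either medium, 15 without replicate 2 of VitC/LIF and 14 without that of L-Pro/LIF.

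**Figure D1:**
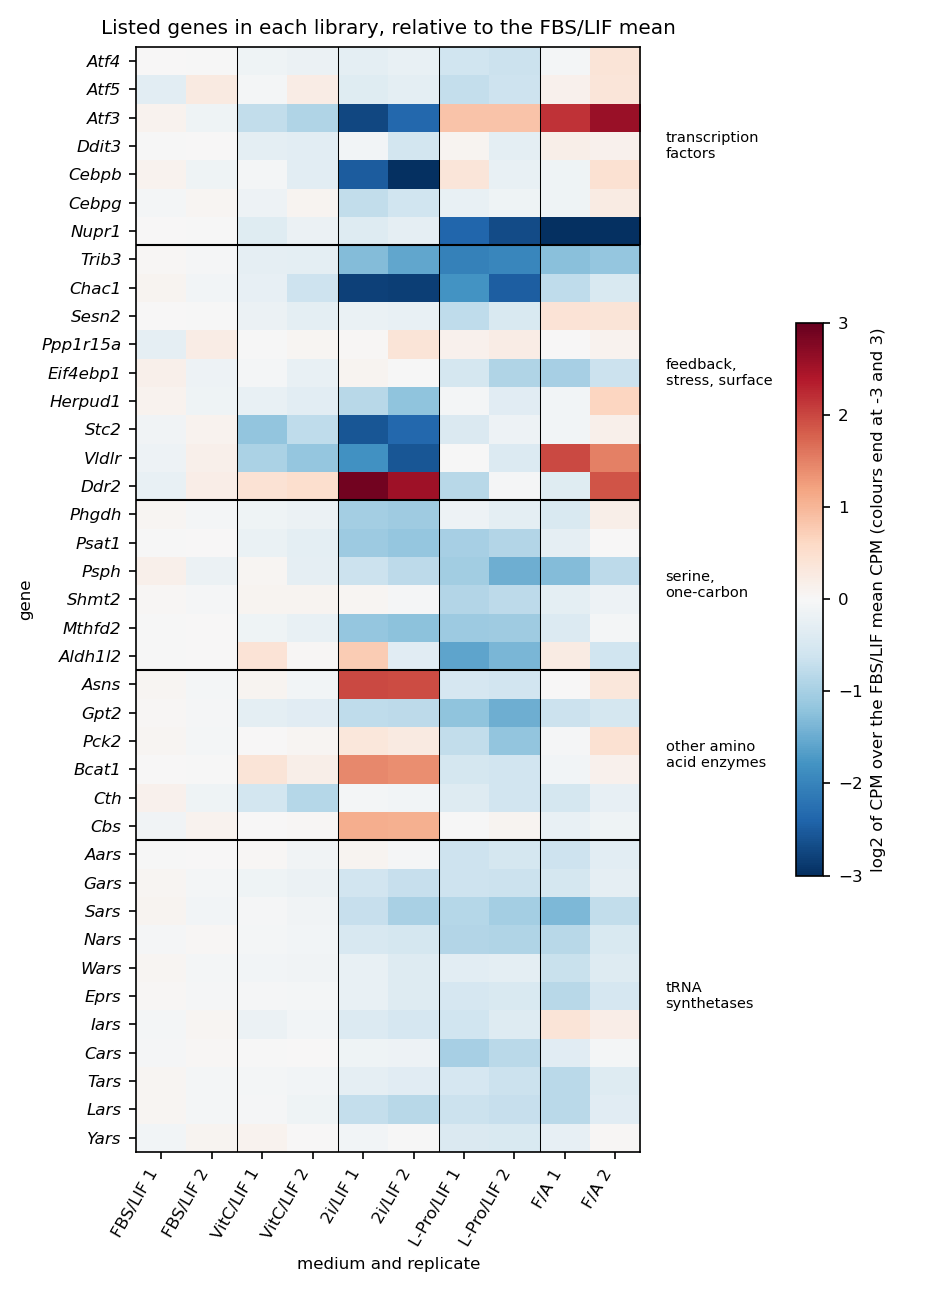
Heat map of the 39 listed genes (rows, in 5 role groups) in the 10 libraries of the 5 media (columns), as log2 of CPM over the mean of the FBS/LIF pair, with colours ending at -3 and 3. The L-Pro/LIF columns are blue for most rows, Nupr1 is blue in both L-Pro/LIF and F/A, and Asns, Bcat1 and Cbs are red in 2i/LIF.

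Of the 7 transcription factors, Atf4 itself was lowest in L-Pro/LIF and Atf3, a feedback repressor and early stress gene, ran from lowest in 2i/LIF to highest in F/A. Atf4 was measured at 251 and 246 CPM in FBS/LIF, 229 and 219 in VitC/LIF, 204 and 212 in 2i/LIF, 165 and 158 in L-Pro/LIF, and 240 and 323 in F/A. Both L-Pro/LIF libraries lay below the other 8, and F/A overlapped FBS/LIF. Atf4 fell in L-Pro/LIF against FBS/LIF by 0.62 on the log2 scale (SE 0.15, edgeR adjusted p = 0.015) and was 0.80 higher in F/A than in L-Pro/LIF (SE 0.15, adjusted p = 0.0086). The second call ended without either L-Pro/LIF library (adjusted p up to 0.092). The first ended without any 1 of its 4 libraries, where the log2 fold change lay between -0.67 and -0.59 and the adjusted p between 0.073 and 0.11.

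Atf3 was at 6.47 and 5.48 CPM in FBS/LIF, 3.59 and 3.18 in VitC/LIF, 0.901 and 1.18 in 2i/LIF, 10.8 and 10.9 in L-Pro/LIF, and 26.8 and 36.0 in F/A. No pair overlapped another. It rose in F/A against FBS/LIF by 2.40 (SE 0.21, adjusted p = 6.0e-05), and fell in 2i/LIF by 2.52 (SE 0.24, adjusted p = 1.0e-04), with edgeR, and both calls held without any 1 library. Its rise in L-Pro/LIF against FBS/LIF, 0.86 (SE 0.21, adjusted p = 0.017), ended without any 1 of the 4 libraries (adjusted p 0.060 to 0.12).

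Nupr1 encodes a small stress-induced chromatin protein. Its level was 6.66 and 6.61 CPM in FBS/LIF, 5.19 and 5.90 in VitC/LIF, 5.09 and 5.49 in 2i/LIF, 1.28 and 1.03 in L-Pro/LIF, and 0.127 and 0.650 in F/A. Every L-Pro/LIF and F/A library was below every other. Against FBS/LIF it fell by 2.52 in L-Pro/LIF (SE 0.37, edgeR adjusted p = 0.0017) and by 3.82 in F/A (SE 0.43, adjusted p = 2.4e-04), where the pair held 14 estimated counts. Both calls held without any 1 library.

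Cebpb, a C/EBP factor that can pair with ATF4, was at 12.8 and 11.0 CPM in FBS/LIF, 11.5 and 9.54 in VitC/LIF, 2.12 and 0.897 in 2i/LIF, 15.4 and 10.2 in L-Pro/LIF, and 10.9 and 16.4 in F/A. The 2i/LIF libraries alone stood apart, and the fall there was 2.97 (SE 0.40, edgeR adjusted p = 7.7e-04). Atf5, a relative of Atf4, was at 7.81 and 11.8 CPM in FBS/LIF, 9.38 and 11.4 in VitC/LIF, 7.58 and 8.02 in 2i/LIF, 5.96 and 6.40 in L-Pro/LIF, and 10.8 and 12.5 in F/A. The L-Pro/LIF pair was below all others, and the difference from FBS/LIF, -0.66 (SE 0.23), had an adjusted p of 0.068, which became 0.043 with the replicate number as a block. Atf5 was 0.92 higher in F/A than in L-Pro/LIF (SE 0.23, adjusted p = 0.027), a call lost without any 1 of those 4 libraries (adjusted p 0.054 to 0.17). Cebpg, the partner of ATF4 in many complexes, fell in 2i/LIF by 0.67 (adjusted p = 0.0097), a call that ended without replicate 1 of 2i/LIF or replicate 2 of FBS/LIF (adjusted p up to 0.087). It passed in no other comparison. Ddit3, which encodes CHOP, passed in none of the 6 and ranged from 3.98 to 6.59 CPM.

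The 9 feedback, stress and surface genes divided by medium: 4 fell in L-Pro/LIF (Trib3, Chac1, Sesn2, Eif4ebp1), while in 2i/LIF 5 fell (Trib3, Chac1, Stc2, Vldlr, Herpud1) and Ddr2 rose. Chac1 encodes an enzyme that degrades glutathione. It was at 14.3 and 12.8 CPM in FBS/LIF, 11.4 and 8.85 in VitC/LIF, 1.96 and 1.91 in 2i/LIF, 3.90 and 2.45 in L-Pro/LIF, and 7.99 and 9.95 in F/A. The 2i/LIF pair was lowest, the L-Pro/LIF pair next, and F/A lay between these and FBS/LIF. Chac1 fell by 2.81 in 2i/LIF (SE 0.28, edgeR adjusted p = 1.3e-04) and by 2.10 in L-Pro/LIF (SE 0.27, adjusted p = 8.2e-04).

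Trib3, a pseudokinase that restrains ATF4, is described here although it fell just outside the 4 genes of its group named by rule, and was chosen after its values were seen. It was at 33.2 and 31.7 CPM in FBS/LIF, 26.9 and 26.7 in VitC/LIF, 13.2 and 11.1 in 2i/LIF, 7.98 and 8.38 in L-Pro/LIF, and 13.7 and 14.6 in F/A. Pairs did not overlap, although the 2i/LIF and F/A pairs lay close to each other. The fall in L-Pro/LIF, 1.99 (SE 0.13, edgeR adjusted p = 3.3e-05), was found in every alternative tried, as were its falls of 1.42 in 2i/LIF and 1.20 in F/A.

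Stc2 encodes a secreted glycoprotein of the stress response. It was at 21.5 and 24.7 CPM in FBS/LIF, 10.2 and 13.7 in VitC/LIF, 3.92 and 4.48 in 2i/LIF, 17.0 and 20.8 in L-Pro/LIF, and 21.9 and 25.6 in F/A. Both VitC/LIF libraries were below FBS/LIF, and the 2i/LIF pair was lower still. The fall in 2i/LIF was 2.46 (SE 0.20, edgeR adjusted p = 5.4e-05). In VitC/LIF the log2 fold change was -0.96 (SE 0.19), with an adjusted p of 0.074 that became 0.033 with the replicate block. Stc2 was 0.67 higher in L-Pro/LIF than in VitC/LIF (adjusted p = 0.029), a call that ended without VitC/LIF replicate 1 or either L-Pro/LIF library, with an adjusted p of up to 0.21.

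Vldlr encodes a lipoprotein receptor, and its level, like that of Atf3, was lowest in 2i/LIF and highest in F/A. It was at 7.67 and 9.52 CPM in FBS/LIF, 4.47 and 3.88 in VitC/LIF, 2.44 and 1.46 in 2i/LIF, 8.48 and 6.52 in L-Pro/LIF, and 34.0 and 24.4 in F/A. F/A lay above all other libraries and 2i/LIF below them, while L-Pro/LIF overlapped FBS/LIF. Against FBS/LIF, Vldlr rose by 1.76 in F/A (SE 0.28, edgeR adjusted p = 0.0014) and fell by 2.14 in 2i/LIF (SE 0.30, adjusted p = 9.3e-04). In L-Pro/LIF against VitC/LIF its log2 fold change of 0.84 had an adjusted p of 0.054, and of 0.039 with the replicate block. Of its fragments, a median of 88.1% hit Vldlr alone.

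Ddr2, a collagen receptor, was hardly expressed, at 0.139 and 0.188 CPM in FBS/LIF, 0.221 and 0.231 in VitC/LIF, 1.22 and 0.953 in 2i/LIF, 0.0917 and 0.158 in L-Pro/LIF, and 0.127 and 0.60 in F/A. Both 2i/LIF libraries were above the rest. Its rise in 2i/LIF, 2.69 (SE 0.65, edgeR adjusted p = 0.014), rested on 7 estimated counts in FBS/LIF and ended without any 1 of the 4 libraries (adjusted p 0.056 to 0.11). Sesn2, a leucine sensor that inhibits mTORC1, ranged from 53.0 and 65.1 CPM in L-Pro/LIF to 120 and 117 in F/A. It fell by 0.60 in L-Pro/LIF against FBS/LIF (adjusted p = 0.0066), a call lost without L-Pro/LIF replicate 1 (adjusted p = 0.068), and was 1.00 higher in F/A than in L-Pro/LIF (SE 0.12, adjusted p = 0.0012). Its rise of 0.40 in F/A against FBS/LIF ended without any 1 of those 4 libraries (adjusted p 0.054 to 0.12). Eif4ebp1, a repressor of cap-dependent translation, fell by 0.71 in L-Pro/LIF and by 0.81 in F/A against FBS/LIF. The former call ended without replicate 1 of FBS/LIF or replicate 2 of L-Pro/LIF (adjusted p up to 0.15). Herpud1, which acts in degradation of proteins of the endoplasmic reticulum, fell in 2i/LIF by 1.02 (adjusted p = 0.013), a call lost without replicate 1 of FBS/LIF or replicate 2 of 2i/LIF (adjusted p up to 0.10). Ppp1r15a, the stress-induced subunit of the eIF2 phosphatase, passed in no comparison and ranged from 15.4 to 24.4 CPM.

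The serine pathway fell in L-Pro/LIF at 5 of its 6 genes, and in 2i/LIF at 4 of 6. Phgdh, Psat1 and Psph encode the enzymes that make serine from a glycolytic intermediate, in that order. Shmt2, Mthfd2 and Aldh1l2 encode mitochondrial enzymes that move the one-carbon unit of serine onward. The summed level of the 6 was 980 and 951 CPM in FBS/LIF, 890 and 834 in VitC/LIF, 534 and 499 in 2i/LIF, 557 and 554 in L-Pro/LIF, and 742 and 947 in F/A.

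Psat1 was at 445 and 450 CPM in FBS/LIF, 392 and 364 in VitC/LIF, 211 and 200 in 2i/LIF, 223 and 242 in L-Pro/LIF, and 374 and 452 in F/A. The 2i/LIF and L-Pro/LIF libraries were close to each other and below all others, and F/A overlapped FBS/LIF. Psat1 fell by 0.94 in L-Pro/LIF (SE 0.13, edgeR adjusted p = 0.0012) and by 1.12 in 2i/LIF (SE 0.13, adjusted p = 3.1e-04), and neither call was lost without any 1 library. Mthfd2 was at 142 and 145 CPM in FBS/LIF, 131 and 123 in VitC/LIF, 64.3 and 61.3 in 2i/LIF, 67.7 and 69.0 in L-Pro/LIF, and 108 and 139 in F/A. Its 2i/LIF and L-Pro/LIF libraries were again the lowest, with falls of 1.08 in L-Pro/LIF (SE 0.13, adjusted p = 6.0e-04) and 1.20 in 2i/LIF (SE 0.13, adjusted p = 2.0e-04). Psat1 and Mthfd2 were 0.83 and 0.86 higher in F/A than in L-Pro/LIF (adjusted p = 0.0047 and 0.0038), calls that ended without L-Pro/LIF replicate 1 (adjusted p = 0.085 and 0.067).

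Psph was at 86.3 and 69.2 CPM in FBS/LIF, 80.9 and 64.9 in VitC/LIF, 50 and 44.9 in 2i/LIF, 38.0 and 28.1 in L-Pro/LIF, and 31.7 and 45.2 in F/A. Unlike the summed level, Psph was low in F/A too, where the libraries overlapped those of L-Pro/LIF. It fell by 1.24 in L-Pro/LIF (SE 0.22, edgeR adjusted p = 0.0045) and by 1.01 in F/A (SE 0.22, adjusted p = 0.0067). Its fall of 0.71 in 2i/LIF (adjusted p = 0.038) ended without any 1 of the 4 libraries (adjusted p 0.058 to 0.20).

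Aldh1l2 was at 5.27 and 5.39 CPM in FBS/LIF, 7.12 and 5.49 in VitC/LIF, 9.01 and 4.2 in 2i/LIF, 1.79 and 2.06 in L-Pro/LIF, and 6.34 and 3.5 in F/A. The L-Pro/LIF pair was below every other library, and the 2i/LIF and F/A pairs were each spread widely. The fall in L-Pro/LIF was 1.47 (SE 0.41, edgeR adjusted p = 0.031), and it ended without any 1 of the 4 libraries (adjusted p 0.10 to 0.14). Shmt2 was 105 and 99.2 CPM in FBS/LIF, 106 and 98.9 in 2i/LIF and 55.1 and 59.1 in L-Pro/LIF, so that it fell in L-Pro/LIF by 0.84 (SE 0.10, adjusted p = 6.9e-04) and differed by 0.00 (SE 0.10) in 2i/LIF. Phgdh fell in 2i/LIF alone of the 4 media set against FBS/LIF, from 196 and 182 to 93.7 and 89.8 CPM (-1.04 on the log2 scale with an SE of 0.19, adjusted p = 0.0033). In L-Pro/LIF its change was -0.22 (SE 0.18, adjusted p = 0.44). Only a median of 60.6% of Phgdh fragments hit that gene alone, the lowest share among the 39, and the call in 2i/LIF held with those fragments only.

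**Figure D2:**
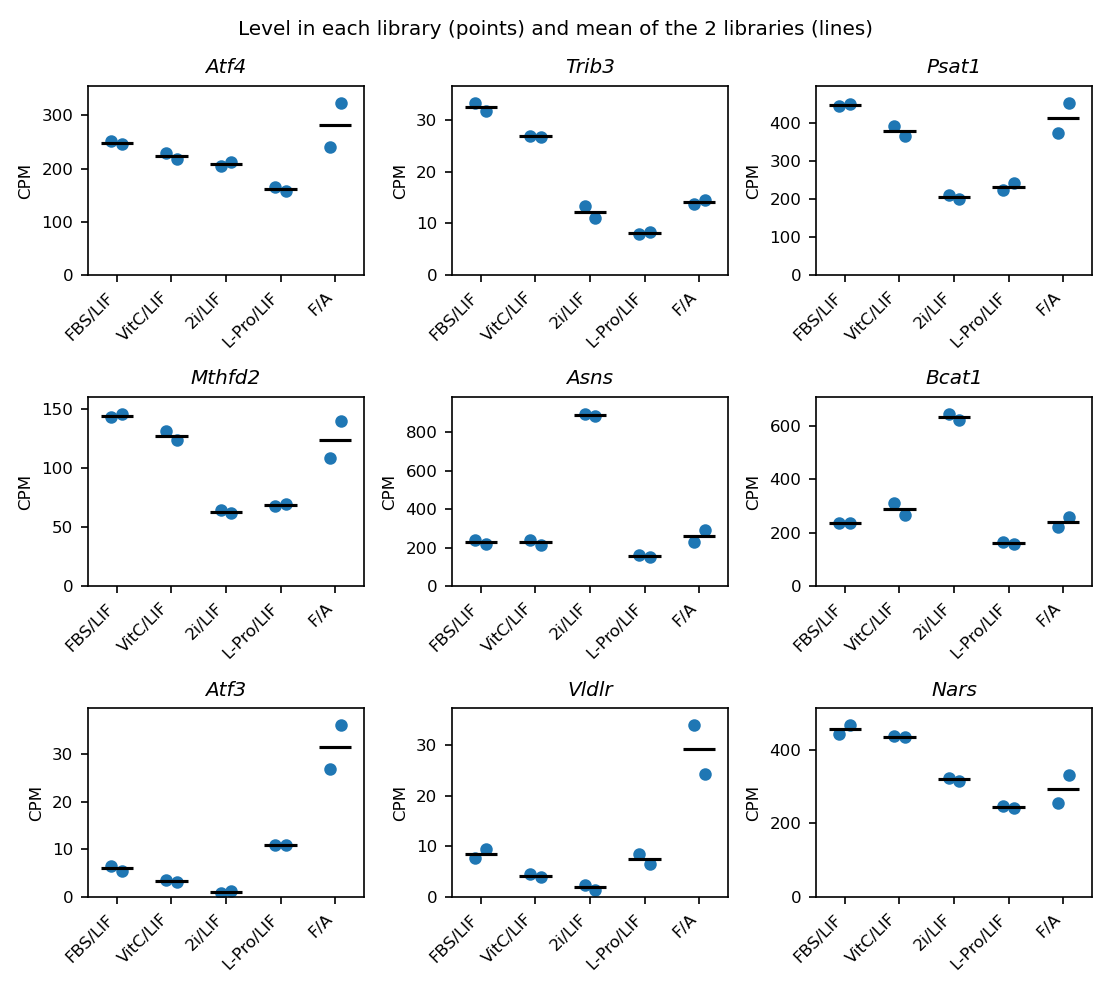
Level in CPM (y axis, linear, from 0) of 9 listed genes in each library of the 5 media (x axis), with points for the 2 libraries and a line at their mean. Psat1 and Mthfd2 are low in both 2i/LIF and L-Pro/LIF, Asns and Bcat1 are high in 2i/LIF and lowest in L-Pro/LIF, and Atf3 and Vldlr are highest in F/A.

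Of the 6 other amino acid enzymes, 4 fell and 0 rose in L-Pro/LIF (Asns, Gpt2, Pck2 and Bcat1), while in 2i/LIF 3 rose (Asns, Bcat1 and Cbs) and 1 fell (Gpt2). The 4 in L-Pro/LIF were 1 without replicate 1 of FBS/LIF or replicate 2 of L-Pro/LIF, and 2 without either of the others. Asns encodes asparagine synthetase, the textbook target of the amino acid response. It was at 237 and 218 CPM in FBS/LIF, 241 and 216 in VitC/LIF, 894 and 884 in 2i/LIF, 161 and 152 in L-Pro/LIF, and 228 and 289 in F/A. Both 2i/LIF libraries were more than 3 times any other, and the L-Pro/LIF pair was lowest. Asns rose by 1.97 in 2i/LIF (SE 0.15, edgeR adjusted p = 3.2e-05) and fell by 0.54 in L-Pro/LIF (SE 0.14, adjusted p = 0.024). The fall ended without any 1 of the 4 libraries (adjusted p 0.076 to 0.16), and the rise did not.

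Bcat1, a transaminase of the branched-chain amino acids, was at 237 and 235 CPM in FBS/LIF, 311 and 267 in VitC/LIF, 645 and 624 in 2i/LIF, 164 and 158 in L-Pro/LIF, and 222 and 259 in F/A. The media took the same extremes as for Asns. Its rise in 2i/LIF was 1.43 (SE 0.13, edgeR adjusted p = 8.5e-05) and its fall in L-Pro/LIF 0.55 (SE 0.13, adjusted p = 0.015), the latter lost without any 1 of the 4 libraries (adjusted p 0.075 to 0.11). Cbs, which makes cystathionine from serine and homocysteine, also rose in 2i/LIF, from 15.6 and 18.2 to 35.8 and 35.2 CPM, a log2 fold change of 1.07 (SE 0.12, adjusted p = 2.7e-04), and passed in no other comparison. Cbs was outside the naming rule and was chosen after its values were seen.

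Gpt2, the mitochondrial alanine transaminase, was at 89.9 and 85.5 CPM in FBS/LIF, 71.3 and 69.6 in VitC/LIF, 52.0 and 51.0 in 2i/LIF, 37.8 and 32.0 in L-Pro/LIF, and 56.2 and 60.6 in F/A. The pairs did not overlap. Gpt2 fell by 1.33 in L-Pro/LIF (SE 0.11, edgeR adjusted p = 1.2e-04), 0.77 in 2i/LIF (SE 0.11, adjusted p = 0.0012) and 0.59 in F/A (SE 0.11, adjusted p = 0.0037), and each call held without any 1 library. Pck2, the mitochondrial enzyme that makes phosphoenolpyruvate, was at 46.0 and 41.9 CPM in FBS/LIF, 44.2 and 46.0 in VitC/LIF, 55.9 and 52.6 in 2i/LIF, 26.2 and 19.4 in L-Pro/LIF, and 42.6 and 60.1 in F/A. Only the L-Pro/LIF libraries lay below the others. The fall from FBS/LIF, 0.94 (SE 0.19, adjusted p = 0.0080), ended without replicate 1 of FBS/LIF or replicate 2 of L-Pro/LIF (adjusted p up to 0.070), whereas that from VitC/LIF, 0.98 (SE 0.19, adjusted p = 0.0050), did not end without any 1 library. Cth, which releases cysteine from cystathionine, passed in none of the 6 comparisons with edgeR. Its largest difference, -0.70 in VitC/LIF (SE 0.15, adjusted p = 0.096), was called by DESeq2 and when no filter on low counts was used.

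**Figure D3:**
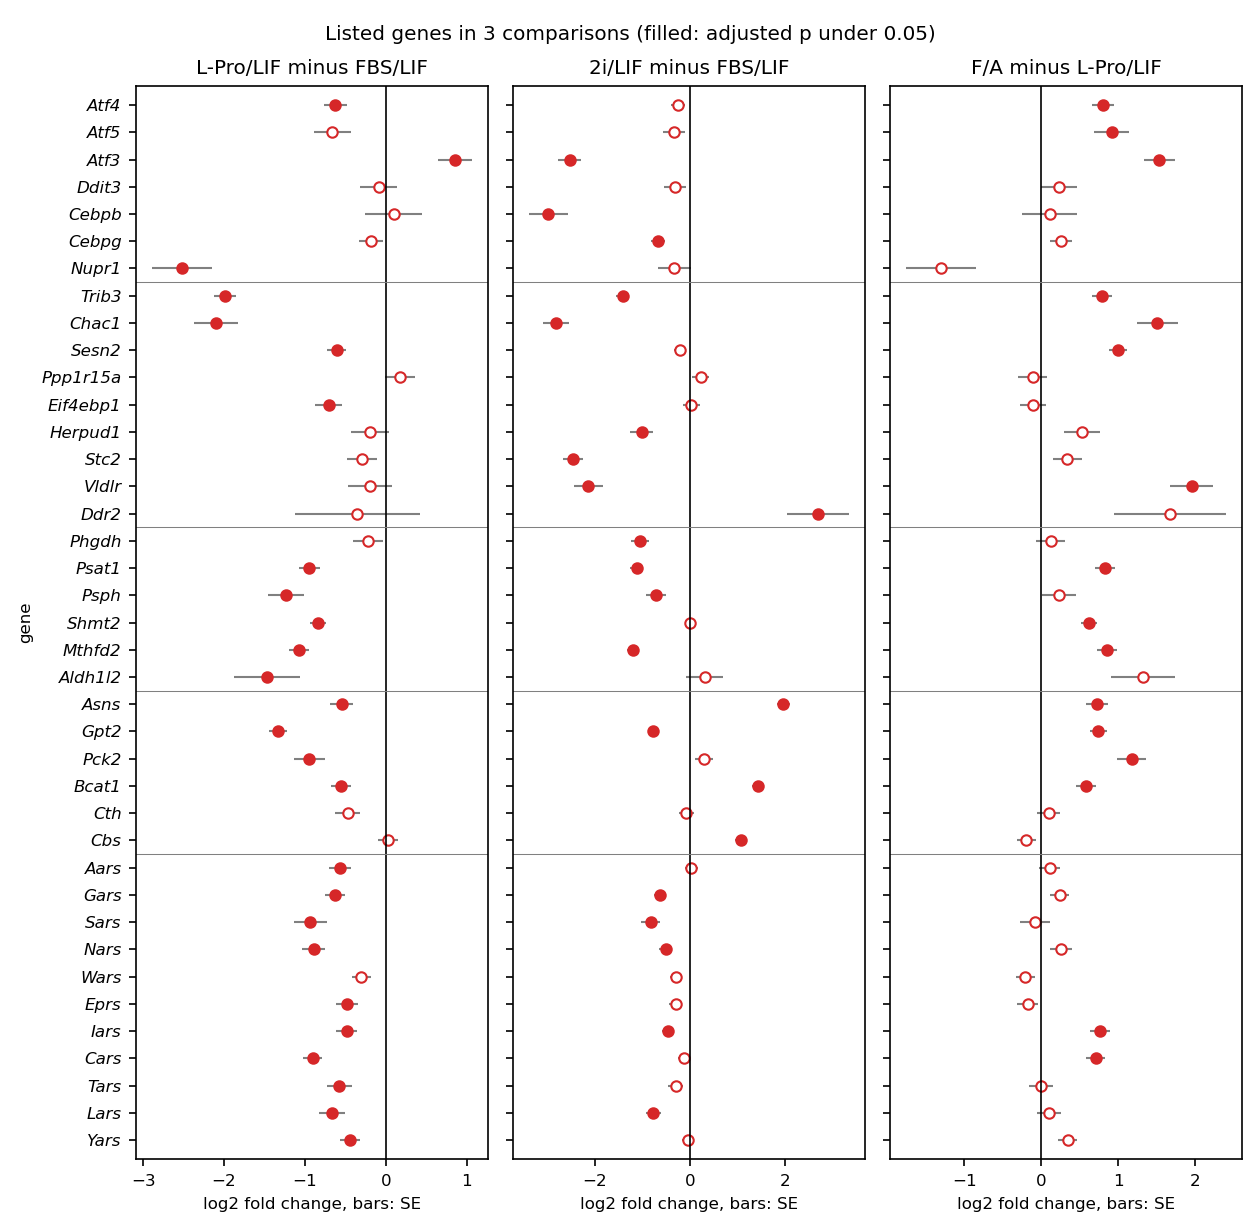
Log2 fold change (x axis) with its SE (bars) for each listed gene (y axis, grouped by role) in L-Pro/LIF minus FBS/LIF, 2i/LIF minus FBS/LIF and F/A minus L-Pro/LIF, where filled points passed an edgeR adjusted p of 0.05. The first panel has 25 filled points below 0 and 1 above, the second 18 below and 4 above, and the third 16 above and 0 below, and the first and last panels share the L-Pro/LIF libraries.

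The tRNA synthetases, which charge tRNAs with their amino acids, fell in L-Pro/LIF at 10 of the 11 listed genes. Their median log2 fold change against FBS/LIF was -0.58 in L-Pro/LIF, where 10 fell and Wars did not pass, and -0.51 in F/A, where 8 fell. In 2i/LIF it was -0.30, and 5 fell, and in VitC/LIF it was -0.07, with 0 called. Of all genes tested, 10.3% were lower in L-Pro/LIF, 22.0% in F/A, 17.9% in 2i/LIF and 0.312% in VitC/LIF. The count in L-Pro/LIF was 4 without replicate 2 of FBS/LIF and 2 without any other 1 of the libraries compared. That in F/A was 3 without replicate 1 and 5 without replicate 2 of FBS/LIF, and 1, Sars, when only those media were fitted. That in 2i/LIF was 0 without replicate 1 of FBS/LIF or replicate 2 of 2i/LIF, and 3 without either of the others. The log2 fold changes in L-Pro/LIF ranged from -0.93 to -0.30. By FPKM in FBS/LIF, Sars at 243 and Gars at 235 were the highest of all 39 genes, and Yars at 54.2 was the lowest synthetase.

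Nars charges asparagine. It was at 444 and 466 CPM in FBS/LIF, 436 and 433 in VitC/LIF, 324 and 315 in 2i/LIF, 248 and 242 in L-Pro/LIF, and 254 and 331 in F/A. FBS/LIF and VitC/LIF libraries were above all others. Nars fell by 0.89 in L-Pro/LIF (SE 0.14, edgeR adjusted p = 0.0023), a call kept without any 1 library, and by 0.64 in F/A (SE 0.14, adjusted p = 0.0065), a call that ended when only those media were fitted.

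Cars, the cysteine enzyme, was at 140 and 147 CPM in FBS/LIF, 142 and 145 in VitC/LIF, 132 and 130 in 2i/LIF, 71.5 and 82.0 in L-Pro/LIF, and 114 and 137 in F/A. It stood apart in L-Pro/LIF only, with a fall of 0.90 (SE 0.12, edgeR adjusted p = 0.0011) that held without any 1 library. Sars, the serine enzyme, was at 412 and 368 CPM in FBS/LIF, 379 and 363 in VitC/LIF, 241 and 200 in 2i/LIF, 217 and 192 in L-Pro/LIF, and 154 and 234 in F/A. The last 3 media overlapped one another and were all below the first 2. Sars fell by 1.01 in F/A (SE 0.20, adjusted p = 0.0041) and by 0.93 in L-Pro/LIF (SE 0.20, adjusted p = 0.010), and the latter call ended without FBS/LIF replicate 1 or either L-Pro/LIF library (adjusted p up to 0.086).

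Lars, the leucine enzyme, was at 645 and 600 CPM in FBS/LIF, 610 and 568 in VitC/LIF, 380 and 350 in 2i/LIF, 398 and 386 in L-Pro/LIF, and 353 and 490 in F/A. Its FBS/LIF and VitC/LIF libraries again formed the upper group. It fell by 0.77 in 2i/LIF (SE 0.16, edgeR adjusted p = 0.0069) and by 0.67 in L-Pro/LIF (SE 0.16, adjusted p = 0.017). The former call ended without replicate 1 of FBS/LIF or replicate 2 of 2i/LIF (adjusted p up to 0.069), and the latter without any 1 of its 4 libraries (adjusted p 0.063 to 0.11). The falls of Aars, Eprs, Iars, Tars and Yars in L-Pro/LIF, between 0.45 and 0.58 on the log2 scale, ended in the same way, with adjusted p values up to 0.21. That of Gars, 0.63, ended without FBS/LIF replicate 1 or either L-Pro/LIF library (adjusted p up to 0.080). Iars, the isoleucine enzyme, and Cars were the 2 synthetases that were higher in F/A than in L-Pro/LIF, by 0.77 and 0.71 (adjusted p = 0.0067 and 0.0069), and both calls ended without L-Pro/LIF replicate 1 (adjusted p = 0.089 and 0.11).

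Synthetases outside the list were counted beside these. Of 9 other cytosolic synthetase genes, 1 fell in L-Pro/LIF against FBS/LIF, with a median of -0.18, and of 17 mitochondrial synthetase genes 2 fell, with a median of -0.23. In F/A, 6 of the 9 and 6 of the 17 fell, with medians of -0.47 and -0.35. In 2i/LIF, Qars, the glutamine enzyme, rose by 0.68 (edgeR adjusted p = 0.0017), and Pars2, the mitochondrial proline enzyme, rose by 0.72 (adjusted p = 0.019). Farsa, Dars and Aars2, for phenylalanine, aspartate and mitochondrial alanine, fell in F/A by 0.86, 0.69 and 0.79. Fars2, the mitochondrial phenylalanine enzyme, fell by 0.75 in L-Pro/LIF against VitC/LIF (adjusted p = 0.0089). Whether the listed synthetases differ from the others as a set was not tested.

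**Figure D4:**
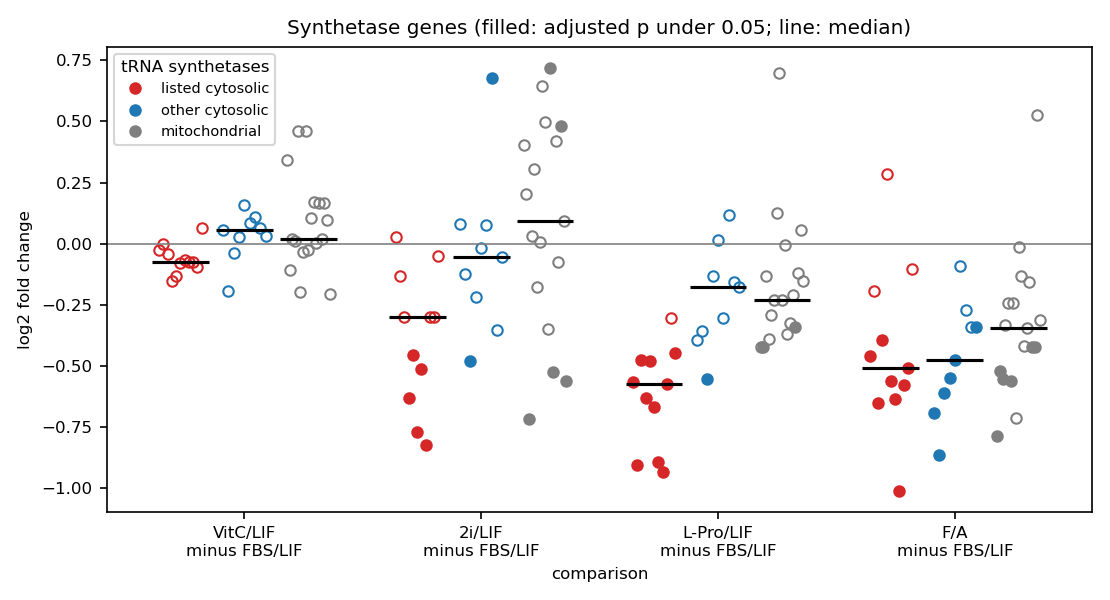
Log2 fold change against FBS/LIF (y axis) of 11 listed cytosolic, 9 other cytosolic and 17 mitochondrial tRNA synthetase genes in 4 media (x axis), with filled points for an edgeR adjusted p under 0.05 and a line at the median. In L-Pro/LIF the listed genes have 10 filled points and a median of -0.58, the others medians of -0.18 and -0.23.

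Genes upstream of Atf4 and on neighbouring pathways were counted from lists of their own. Of all genes tested against FBS/LIF, 10.3% were lower and 13.7% higher in L-Pro/LIF. The shares lower and higher were 17.9% and 12.5% in 2i/LIF, and 22.0% and 24.4% in F/A. Whether a list differs from all genes was not tested. Among 11 genes for eIF2 kinases, the eIF2 phosphatase and eIF2B, 1 fell in L-Pro/LIF against FBS/LIF, Eif2b1, by 0.42 (edgeR adjusted p = 0.020), while in 2i/LIF 2 rose and in F/A 3 fell and 2 rose. In 2i/LIF, Eif2b5, the catalytic subunit of the exchange factor eIF2B, rose from 228 and 186 to 625 and 545 CPM, a log2 fold change of 1.5 (SE 0.19, adjusted p = 5.7e-04). In F/A, Eif2s1, the phosphorylated subunit of eIF2, fell by 0.66 (adjusted p = 0.014). A further list held 16 genes for chaperones and the unfolded protein response of the endoplasmic reticulum. Against FBS/LIF, 2 rose and 2 fell in L-Pro/LIF, 0 rose and 4 fell in 2i/LIF, and 5 rose and 1 fell in F/A. Their median log2 fold changes were 0.31, -0.02 and 0.19 in that order, and 2 of the 16 lay below 0 in L-Pro/LIF. Xbp1, a transcription factor of that response, fell by 0.63 in L-Pro/LIF (adjusted p = 0.013), and Hyou1, a chaperone, rose by 0.94 in F/A (adjusted p = 0.0015). Ern1, the sensor that splices Xbp1 mRNA, rose by 1.07 in F/A (adjusted p = 0.039).

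Other reported ATF4 targets went both ways, with 4 of the 12 tested lower and 2 higher in L-Pro/LIF and a median of 0.01. In 2i/LIF 5 were lower and 2 higher, and in F/A 4 were lower and 2 higher. Of all genes tested, 10.3%, 17.9% and 22.0% were lower in L-Pro/LIF, 2i/LIF and F/A, and 13.7%, 12.5% and 24.4% higher. Gdf15, a secreted stress signal, fell by 2.43 in L-Pro/LIF (SE 0.45, edgeR adjusted p = 0.0054), from 1.48 and 1.08 to 0.183 and 0.277 CPM. Ddit4, an mTORC1 inhibitor, rose by 1.47 (SE 0.25, adjusted p = 0.0032), from 17.9 and 25.7 to 56.6 and 64.2 CPM. Gadd45a, which acts in growth arrest, fell by 0.77 in L-Pro/LIF, 2.37 in 2i/LIF and 1.90 in F/A. Of 12 other genes of one-carbon, glycine and methionine metabolism, 3 fell and 0 rose in L-Pro/LIF. In 2i/LIF 3 of them fell and 4 rose, and in F/A 7 fell and 1 rose. Gldc, of the glycine cleavage system, fell by 0.96 in L-Pro/LIF and 1.96 in 2i/LIF, and Shmt1, the cytosolic counterpart of Shmt2, fell by 1.44 in F/A and by 0.77 in L-Pro/LIF.

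Listed genes with and without the promoter match were counted beside each other. Of the 13 with a match, 10 fell and 1 rose in L-Pro/LIF against FBS/LIF, with a median log2 fold change of -0.57. Of the 19 with a window but no match, 10 fell and 0 rose, with a median of -0.55. In F/A against L-Pro/LIF, 7 of the 13 and 8 of the 19 rose, with medians of 0.73 and 0.34. Of all genes tested, 10.3% were lower in L-Pro/LIF against FBS/LIF and 11.1% higher in F/A against L-Pro/LIF. Of the serine pathway genes, 5 of 6 were lower in L-Pro/LIF. The 5 with a window had no match, and Aldh1l2, 1 of the lower genes, had no window.

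The single libraries of double-positive cells allow no test, since each condition had 1 library, and ratios carry 95% intervals that cover counting error only. At 1 mM L-proline for 5 days, 14 of 39 listed genes (35.9%) were at least 2-fold lower than at day 0 and 1, Atf3, was at least 2-fold higher, beside 15.4% lower and 20.1% higher of all genes at or above 1 CPM (35.5% in either direction). The median log2 ratio was -0.56, and that of all genes 0.02. On day 3 of F/A, 7 were 2-fold lower and 2 higher, beside 13.5% and 17.3% (30.8% in either direction). On day 5 of F/A, 3 were lower and 4 higher, beside 16.6% and 20.7% (37.3%), which is not above the background. From day 3 to day 5 of F/A, 5 were higher and 1 lower, beside 9.85% and 9.79% (19.6%). The 3 ratios to day 0 share 1 library. The summed level of the 12 fibroblast markers was 33.4 CPM on day 0, 96.1 with L-proline, 43.3 on day 3 and 40.2 on day 5 of F/A, and its part in these ratios was not tested.

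In the order day 0, L-proline, F/A day 3 and F/A day 5, Atf4 was at 375, 278, 350 and 453 CPM. Its log2 ratio with L-proline was -0.43 (interval -0.47 to -0.39), and on day 5 of F/A 0.27 (0.24 to 0.31). Atf3 was at 2.07, 46.6, 9.72 and 98.6 CPM, so that both day 5 libraries were high and day 3 lay between. Nupr1 was at 14.5, 1.15, 2.70 and 1.08 CPM, lowest in the day 5 libraries of both treatments.

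Serine and one-carbon genes other than Phgdh were lowest with L-proline. Psph was at 84.7, 19.7, 41.3 and 42.5 CPM, with a log2 ratio of -2.11 (-2.22 to -1.99) for L-proline. Shmt2 was at 399, 108, 155 and 202 CPM, with -1.89 (-1.94 to -1.84), and Psat1 at 489, 256, 408 and 507 CPM, with -0.94 (-0.97 to -0.90). Mthfd2 and Aldh1l2 had ratios of -1.09 and -2.87. In all 5 genes the L-proline library was the lowest of the 4. Phgdh, at 196, 163, 164 and 206 CPM, was as low on day 3 of F/A as with L-proline within counting error.

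Among the 6 other enzymes, Pck2 was at 96.2, 17.0, 39.1 and 58.5 CPM, a log2 ratio of -2.50 (-2.62 to -2.38) for L-proline. Gpt2 was at 82.8, 21.0, 51.5 and 60.5 CPM, and Asns at 407, 161, 221 and 356 CPM, with ratios of -1.98 and -1.34. In all 3 genes the L-proline library was lowest and F/A day 5 was nearer to day 0 than F/A day 3 was. The other 3 enzymes differed from this. Cth, at 171, 197, 100.4 and 209 CPM, was lowest on day 3 of F/A. Bcat1, at 321, 257, 256 and 291 CPM, was as low on day 3 of F/A as with L-proline within counting error. Cbs, at 26.8, 18.2, 23.5 and 17.1 CPM, was nearer to day 0 on day 3 of F/A than on day 5. Trib3, at 40.8, 6.80, 18.5 and 24.0 CPM, took the order of Pck2, Gpt2 and Asns, with a ratio of -2.59 (-2.78 to -2.40) for L-proline. Chac1 was at 17.5, 4.77, 23.0 and 17.2 CPM, lower with L-proline but not in F/A. Ddr2 had 127 counts on day 0 and 8, 16 and 20 in the treated libraries, which are 3.76, 0.205, 0.437 and 0.602 CPM.

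All 11 listed synthetases had a log2 ratio below 0 with L-proline, from -1.48 for Cars to -0.21 for Wars, and 3 were at least 2-fold lower, Cars, Sars and Nars. Cars was at 218, 78.0, 134 and 163 CPM, Sars at 377, 161, 204 and 246 CPM, and Nars at 626, 294, 416 and 483 CPM. On day 5 of F/A, 10 of the 11 ratios were below 0, none of them 2-fold, and Iars was at 0.15 (0.12 to 0.18). Vldlr, at 5.66, 4.26, 12.3 and 39.7 CPM, and Stc2, at 18.5, 16.1, 30.9 and 44.2 CPM, were instead highest on day 5 of F/A.

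**Figure D5:**
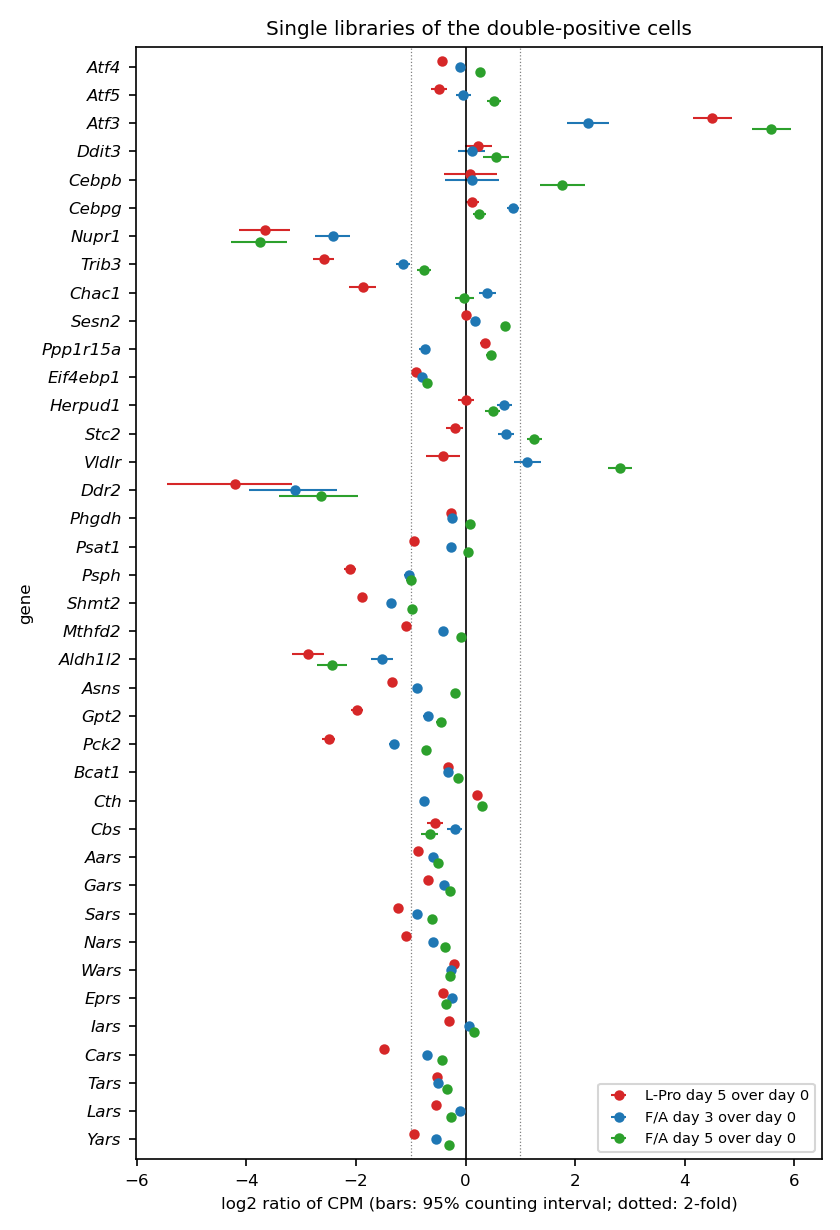
Log2 ratio of CPM to day 0 (x axis, dotted lines at 2-fold) for each listed gene (y axis) in 3 single libraries of double-positive cells, with bars for the 95% counting interval. With L-proline 14 genes lie beyond the lower 2-fold line and Atf3 beyond the upper one, and on day 5 of F/A Atf3, Cebpb, Vldlr and Stc2 lie beyond the upper line.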

How the data were processed

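The deposited files of the 4 single libraries hold the authors' raw counts by Ensembl identifier. For the 10 libraries of the 5 media, per the file headers, they deposited natural log expression values on an FPKM scale, counts of unique hits and effective lengths. The submitters' processing notes name CASAVA, TopHat2 2.0.13, Bowtie, HTSeq 0.6.1p1, DESeq and the build mm9, without assigning them to files, and the strand setting is not given in the sources used here. Estimated counts were computed here by undoing the FPKM scaling and rounding, and they made up 98.7% to 99.5% of mapped fragments. Symbols came from GENCODE vM21 identifiers, and all 39 matched.

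Genes were filtered with filterByExpr, scaled by TMM and tested with edgeR 4.0.16 (R 4.3.3, quasi-likelihood F test, 2-sided) with the 10 libraries in 1 model that had a coefficient for each medium, and Benjamini-Hochberg adjustment over all 16033 genes. Each SE was taken as |log2 fold change| divided by sqrt(F). With 5 residual degrees of freedom, the common coefficient of biological variation came to 0.238. The procedure was checked on data simulated from the fitted spread between libraries. No effect of replicate number was simulated, so the check does not cover one. Alternatives were DESeq2 1.42.0, limma 3.58.1 on log2(FPKM + 1) and log2(FPKM + 0.1), DESeq2's size factors, no filter, unique hits, only the 2 media compared, and each library left out.

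The replicate number was checked as a pairing: deviations of the replicates correlated between every pair of media (0.116 to 0.488), and effective lengths were 34.6 to 53.2 bases longer in replicate 2 than in replicate 1 of the same medium. The number was therefore also fitted as a block, and its value is printed where it changed a call. Within a number each medium has 1 library, which allows no test. In the single libraries, CPM intervals are Clopper-Pearson and ratios past 2-fold need 1 CPM in the higher library.

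The members, lists and comparisons were chosen with earlier results of these data known. Genes given in every library are Atf4 and, per role group, the 4 with the largest called change in any of the 6 comparisons, and up to 3 per other list are named, except 1 gene that is not reported here. A median of at least 90% of fragments hit the gene alone for 36 of the 39 genes. The exceptions were Phgdh, Vldlr and Aldh1l2 (83.6%).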

Additional observations from a re-analysis of the deposited data

Results flagged for a closer look

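In 2 listed genes the L-proline contrast had opposite signs in the single libraries and the 5-media set, where the counting interval of the former left out 0 and the L-Pro/LIF and VitC/LIF libraries of the latter did not overlap. Differences within those limits were not counted. Stc2 had a log2 ratio of -0.201 for L-proline day 5 over day 0 (counting interval -0.363 to -0.039), where the day 0 cells were kept with vitamin C, and a log2 fold change of 0.666 in L-Pro/LIF minus VitC/LIF (edgeR adjusted p = 0.0288). Vldlr had -0.411 (-0.719 to -0.103) and 0.844 (adjusted p = 0.0538). The difference between the sets was not tested. Vitamin C was at 100 µM in the first and 500 µM in the second, and population and RNA extraction differed too.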

How the results depend on the processing

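No change of sign occurred among called values under any alternative. Leaving out each library in turn gave 11 to 15 listed genes called in L-Pro/LIF minus FBS/LIF (26 with all libraries), 0 to 0 in VitC/LIF, 14 to 17 in 2i/LIF (22), 10 to 22 in F/A (16), 13 to 15 in L-Pro/LIF minus VitC/LIF (27), 6 to 20 in F/A minus L-Pro/LIF (16) and 28 to 36 for any difference (37). For all genes the same ranges were 2002 to 2238, 6 to 12, 2932 to 3298, 4345 to 8464, 2860 to 3057, 752 to 6296 and 7993 to 11603. A medium left with 1 library is assumed to vary like the others. In VitC/LIF minus FBS/LIF the listed genes called were 2 with no filter, 3 with DESeq2 and 1 with the replicate block, and all genes called (108) were 263 with no filter, 432 with DESeq2, 243 with unique hits, 62 with limma on log2(FPKM + 0.1) and 61 with only the 2 media fitted. Fitting only the 2 media compared gave 8 listed and 4470 of all genes in F/A minus FBS/LIF, and 3 and 729 in F/A minus L-Pro/LIF. A 1.5-fold threshold in the single libraries gave 21 listed genes on day 3 and 15 on day 5 of F/A. With the stricter motif 28.1% of listed genes with a window had a match. The replicate block also brought Aldh1l2 in F/A minus L-Pro/LIF to an adjusted p of 0.044, and Sesn2, Eprs and Tars in L-Pro/LIF minus VitC/LIF to 0.062, 0.059 and 0.053. It changed no other call than those given here and in the results. The causes were not tested, and the fits that leave libraries out also have fewer of them. Of the calls, 10 of 26, 13 of 22, 8 of 16, 12 of 27 and 3 of 16 (L-Pro/LIF, 2i/LIF and F/A against FBS/LIF, L-Pro/LIF minus VitC/LIF, F/A minus L-Pro/LIF) held in every alternative. Ddr2 and Nupr1 had the lowest estimated counts of the 39 genes in any library, down to 1. F/A replicate 1 had the fewest mapped fragments, and the part of depth in these results was not tested.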

Other observations

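Lars2, which encodes the mitochondrial leucine synthetase, was called in none of the 6 comparisons of media, and it was chosen for mention after its values were seen. In the single libraries it was at 1360 CPM on day 0, 124 with L-proline, 1117 on day 3 and 175 on day 5 of F/A. In the 5-media set the libraries of a pair differed from each other, at 38.9 and 178 CPM in L-Pro/LIF and 68.5 and 141 in 2i/LIF.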
